A study of Mus musculus with 9 samples.

Results

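The genes described here are leukocyte integrins and adhesion molecules, chosen by symbol: Itgam, Itgax, Itgal, Itgb2, Itgb7, Itgae, Itga6, Icam1 and Selplg. They are 9 of the 24346 gene symbols measured, all 9 had a value in every sample, and 8 passed the filter on low values. RNA was measured in lung macrophages of C57BL/6 mice at postnatal week 10, sorted as CD45+ autofluorescent cells. In tumor-bearing mice, Lewis lung carcinoma (LLC) cells, a single mouse lung cancer line carrying the fluorescent protein tdTomato, had been placed in the left lung, while controls were given vehicle. The 3 groups, of 3 samples each, were Siglec-F+ alveolar macrophages (AMs) of control mice (Ctrl-AM), Siglec-F+ AMs of mice with tumor (Tumor-AM), and Siglec-F− F4/80+ tumor-associated macrophages (TAMs) of tumor-bearing mice (Tumor-macrophage). The comparisons ask how AMs differ with and without tumor, and how TAMs differ from AMs.

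Integrins are pairs of an alpha and a beta chain that hold cells to each other or to matrix. The beta chain CD18 (Itgb2) occurs only in leukocytes and pairs with CD11a (Itgal, giving LFA-1), CD11b (Itgam, giving Mac-1, also complement receptor 3) or CD11c (Itgax, giving complement receptor 4). Alveolar macrophages are known for carrying CD11c and little CD11b, unlike macrophages that come from blood monocytes. The study described its AMs as CD11c+ CD11b− and its TAMs as CD11b+ from surface staining, so the directions of Itgam and Itgax between AMs and TAMs are not independent of how these populations were described.

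Levels are FPKM, reads counted per transcript length and per sequencing depth of each sample, so that levels of genes are compared per length. Estimated depth was 11073000 to 13943000 reads per sample. Changes are differences of log2(FPKM + 1), which understate the change of low genes, each with its standard error (SE) from limma. Adjusted p is limma's, adjusted by Benjamini-Hochberg over the 10686 genes with FPKM of at least 1 in at least 3 samples, and a gene is called below 0.05. Because these are bulk samples, fewer cells of a type and less RNA per cell cannot be told apart.

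The sorted cells carried the markers their labels call for. Of 8 AM markers, none was at 0 in all samples, and their summed level was 24800 to 41286 FPKM in AMs against 203 to 498.8 in TAMs. Chil3 made up most of this sum (20425 to 36468 FPKM in AMs and 128.5 to 430.4 in TAMs). Each of the 8 was higher in every AM sample than in every TAM sample. Between the AM groups, Siglecf, Pparg, Ear2 and Krt79 were lower in Tumor-AM without overlap, and Marco, Fabp4, Car4 and Chil3 overlapped. Siglecf, part of the gate, was 164.0 to 209.0 FPKM in AMs and 0.456 to 0.835 in TAMs. Adgre1, which encodes F4/80, was present in every group (114.7 to 442.1 FPKM). Several other blood cell types had marker sums that were highest in TAMs. The summed level of 5 B-cell markers was 12.7 to 16.9 FPKM in Ctrl-AM samples, 3.15 to 7.49 in Tumor-AM samples and 31.5 to 58.3 in TAMs. For 6 dendritic cell markers it was 15.2 to 17.9, 7.48 to 14.6 and 25.0 to 56.4, for 5 NK cell markers 0.829 to 2.90, 0.722 to 2.35 and 8.16 to 8.25, and for 6 eosinophil and mast cell markers, with Epx at 0 in all samples, 0.382 to 0.703, 0 to 0.456 and 3.94 to 14.3. Klrk1 made up most of the NK cell sum in TAMs (5.34 to 7.13 FPKM), while Ncr1, Klrb1c, Prf1 and Eomes all overlapped between TAMs and AMs. Of the dendritic cell markers, Ccr7 and Cd209a made up most of the sum in TAMs. Cd209a (6.92 to 16.9 FPKM in TAMs against 4.25 to 7.21 in Ctrl-AM), Clec9a and Zbtb46 overlapped with AMs. B cells, dendritic cells, NK cells, eosinophils and mast cells are known to carry several of the integrins described here, and the part of such cells in the results was not tested. The T-cell and neutrophil sums ran the other way, at 406.0 to 521.2 and 134.1 to 206.2 FPKM in AMs against 21.0 to 44.0 and 66.0 to 102.9 in TAMs. Of 7 T-cell markers, Cd2 made up most of the sum in AMs (398.7 to 515.5 FPKM), while Cd3e was 0.265 to 1.55 in AMs and 1.14 to 3.13 in TAMs.

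Itgal, Itgam and Itgax lie on the plus strand of chromosome 7 in mouse build GRCm38 (mm10), with Itgax starting 11055 bases after the end of Itgam, and Itgal ending 727501 bases before Itgam. The 250 bases before the RefSeq start (GRCm38.p6) were at hand for 4 of the 9 genes, and they are shown because Itgam and Itgax, neighbors in the genome, ran in opposite directions between AMs and TAMs, while Itgb7 and Icam1 were both higher in TAMs. Each is written 5′ to 3′ along its gene, with motif matches in capitals.
Itgam (chr7:128062390-128062639, plus strand): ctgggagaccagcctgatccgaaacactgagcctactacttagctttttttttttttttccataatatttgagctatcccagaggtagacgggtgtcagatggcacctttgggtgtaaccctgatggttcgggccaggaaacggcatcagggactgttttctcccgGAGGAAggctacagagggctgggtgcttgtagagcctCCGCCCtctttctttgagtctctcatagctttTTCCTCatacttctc
Itgax (chr7:128129300-128129549, plus strand): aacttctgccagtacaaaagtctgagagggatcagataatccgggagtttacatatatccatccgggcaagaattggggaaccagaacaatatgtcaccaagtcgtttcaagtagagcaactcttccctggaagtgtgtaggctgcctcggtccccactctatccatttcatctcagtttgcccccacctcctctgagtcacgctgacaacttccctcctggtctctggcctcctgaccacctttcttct
Itgb7 (chr15:102231936-102232185, minus strand): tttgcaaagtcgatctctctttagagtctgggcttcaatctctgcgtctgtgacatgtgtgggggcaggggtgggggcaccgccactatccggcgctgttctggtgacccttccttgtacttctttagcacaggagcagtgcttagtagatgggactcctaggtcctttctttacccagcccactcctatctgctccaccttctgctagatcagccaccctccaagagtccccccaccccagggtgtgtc
Icam1 (chr9:21015690-21015939, plus strand): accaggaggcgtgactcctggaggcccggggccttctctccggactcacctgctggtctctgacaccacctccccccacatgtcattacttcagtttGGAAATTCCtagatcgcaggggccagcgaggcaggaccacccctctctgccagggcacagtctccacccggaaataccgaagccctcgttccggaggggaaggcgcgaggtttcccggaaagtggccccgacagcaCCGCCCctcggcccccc
The motifs searched on both strands were GAGGAA, a core of sites for the myeloid factor PU.1, GGGCGG, a GC box, and GGAAATTCC, an NF-kB site. The Itgam stretch held GAGGAA at 84 bases before the start and its reverse complement at 15, and a GC box on the other strand at 47. The Icam1 stretch held the NF-kB site at 153 bases before the start and a GC box on the other strand at 17. No match lay in the Itgax or Itgb7 stretch. Among 32851 mouse promoter stretches of the same length, 23.3% held GAGGAA, 32.7% held GGGCGG and 0.286% held GGAAATTCC on either strand. A match is a description of the letters only.

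AMs and TAMs differed in every gene tested, while tumor-bearing and control AMs differed in Itgam and Itgb2. Between Tumor-AM and Ctrl-AM, 2 of the 8 tested genes were called, both higher in Tumor-AM, where 10.3% of all genes tested were called (7.11% higher and 3.18% lower). Values did not overlap between these groups for 3 of the 8, Itgam, Itgb2 and Itga6, against 32.3% of all genes. Their median change was 0.18, against 0.014 over all genes. All 8 were called between TAMs and Tumor-AM, where 48.6% of all genes were (24.2% higher, 24.4% lower), and all 8 between TAMs and Ctrl-AM, where 54.8% were (27.7% higher, 27.1% lower). In both, Itgam, Itgb7, Itga6 and Icam1 were higher in TAMs, and Itgax, Itgal, Itgb2 and Selplg lower. None of the 8 overlapped between TAMs and either AM group, against 55.3% of all genes not overlapping with Tumor-AM and 62.3% not overlapping with Ctrl-AM. The median change of the 8 was -0.17 against Tumor-AM and 0.13 against Ctrl-AM, beside 0.0012 and -0.0082 over all genes. The comparisons share samples, so their like directions are not separate evidence.

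**Figure D1:**
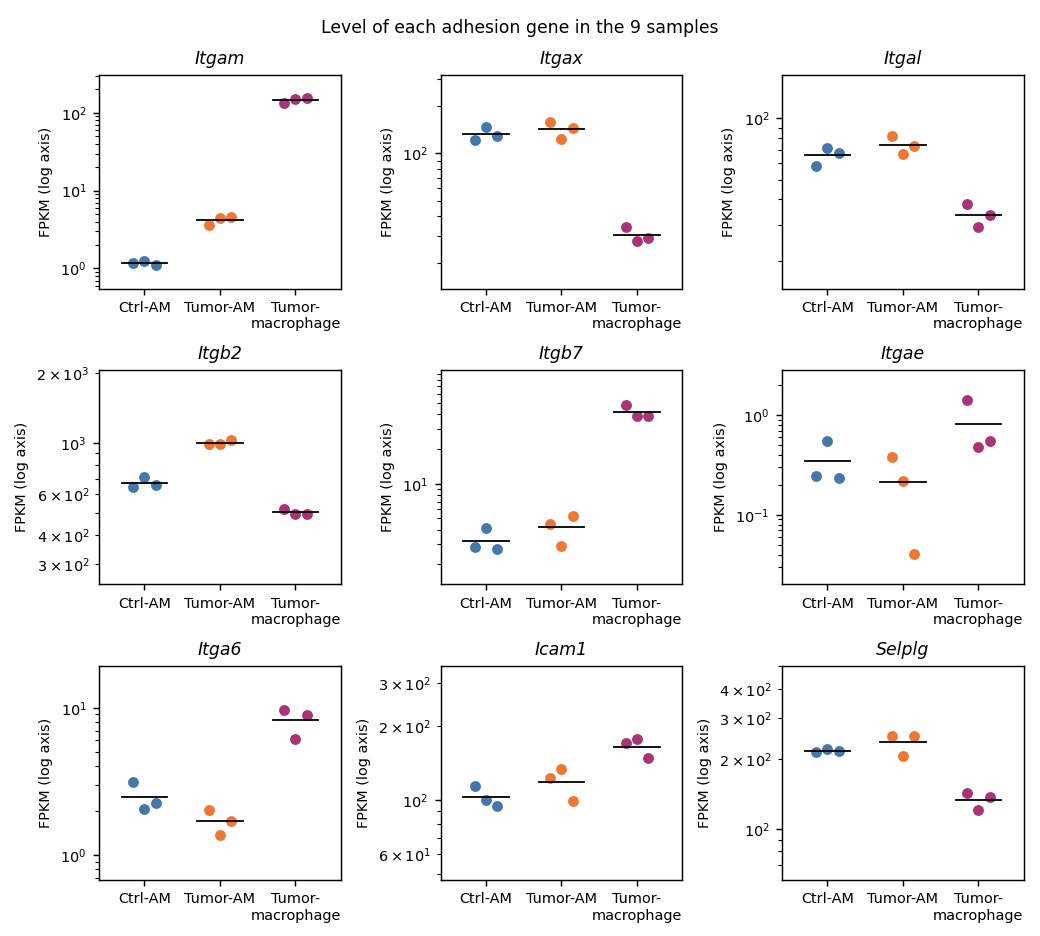
FPKM (log axis, scaled per panel) of the 9 genes in the 9 samples, points by group with the group mean as a bar. Itgam in TAMs (134.4 to 155.6) lay far above both AM groups, and Itgb2 was highest in Tumor-AM (986.6 to 1030).

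Itgb2, the shared beta chain CD18 (chromosome 10, 77530252 to 77565708), was the most abundant of the 9 in every group. Its level was 642.4, 713.1 and 659.2 FPKM in the Ctrl-AM samples, 986.6, 988.9 and 1030 in the Tumor-AM samples, and 518.4, 494.9 and 491.7 in the TAM samples. All Tumor-AM samples lay above all Ctrl-AM samples, and all TAM samples lay below both. It rose in Tumor-AM by 0.58 ± 0.065 (SE, log2; adjusted p = 0.000643, limma), a ratio of means of 1.49. In TAMs it was lower than in Tumor-AM by a log2 change of -0.997 ± 0.065 (adjusted p = 4.44e-07, limma), and lower than in Ctrl-AM by -0.42 ± 0.065 (adjusted p = 0.000281, limma). Neutrophils also carry CD18, and the summed level of the 5 neutrophil markers measured was 134.6 to 158.9 FPKM in Ctrl-AM samples, 134.1 to 206.2 in Tumor-AM samples and 66.0 to 102.9 in TAMs. S100a8 made up most of it, at 71.7 to 81.4 FPKM in Ctrl-AM samples and 86.0 to 144.3 in those of Tumor-AM, while S100a9 (20.4 to 32.2 FPKM against 3.28 to 9.99) and Retnlg (1.78 to 3.66 against 0.216 to 1.28) had their higher values in Ctrl-AM. Their part in the result was not tested.

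Itgam, the CD11b chain (chromosome 7, 128062640 to 128118491, 30 exons in its longest coding transcript), changed most. Its level was 1.17, 1.24 and 1.10 FPKM in the Ctrl-AM samples, 3.61, 4.46 and 4.52 in the Tumor-AM samples, and 134.4, 151.1 and 155.6 in the TAM samples. The 3 groups were fully apart, with Tumor-AM close to Ctrl-AM and far below TAMs. An estimated 63.9 to 77.7 reads stood behind each Ctrl-AM value and 186.0 to 276.0 behind each Tumor-AM value, so counting error is small beside these steps. Itgam rose in Tumor-AM by 1.26 ± 0.10 (adjusted p = 0.000158, limma), with a ratio of means of 3.59. It was higher in TAMs by 4.83 ± 0.10 than in Tumor-AM (adjusted p = 1.74e-10, limma) and by 6.09 ± 0.10 than in Ctrl-AM (adjusted p = 3.67e-11, limma), ratios of means of 35.0 and 125.7.

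Some markers of monocyte-derived cells moved in the same direction as Itgam in Tumor-AM. The summed level of 5 monocyte markers was 14.3 to 16.5 FPKM in Ctrl-AM samples, 19.3 to 23.9 in Tumor-AM samples and 177.2 to 212.5 in TAMs, with none at 0 in all samples. Ccr2, a chemokine receptor of monocytes, was 1.30 to 1.90 FPKM in Ctrl-AM samples and 3.04 to 5.83 in those of Tumor-AM, while Cx3cr1, another, was 0.302 to 0.523 and 0.270 to 0.741, and reached 46.8 to 86.0 in TAMs. Ccr2 did not overlap between the AM groups and Cx3cr1 did. Ly6c2 did not overlap either (4.67 to 5.66 FPKM in Ctrl-AM against 7.44 to 8.20), nor did Vcan, which was at most 0.383 in AMs. Plac8 overlapped (7.75 to 9.07 against 7.52 to 11.4). The summed level of 5 fibroblast markers was 3.12 to 5.19 FPKM in Ctrl-AM samples and 9.33 to 64.3 in Tumor-AM samples. In TAMs it was 7.37 to 13.2. Lum and Dcn made up most of the Tumor-AM sum. Lum was 0.229 to 0.480 FPKM in Ctrl-AM and 4.95 to 35.1 in Tumor-AM, and Dcn 1.82 to 3.49 and 4.28 to 25.7. Neither overlapped between the AM groups. Col1a1 (0.308 to 0.906 FPKM in Ctrl-AM against 0 to 1.37), Col1a2 (0.396 to 0.809 against 0 to 0.562) and Pdgfra did overlap. The part of TAMs, monocytes or fibroblast RNA among the sorted AMs in the Itgam and Itgb2 results was not tested. In the GENCODE vM21 annotation, 73.69% of the bases of the longest coding Itgam transcript also lie in exons of Gm49368, a locus on the same strand that is not analysed here, so the reads of Itgam could have been shared with it.

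Itgax, the CD11c chain (chromosome 7, 128129547 to 128150657), was high in both AM groups and lower in TAMs. Its level was 122.6, 147.6 and 129.2 FPKM in the Ctrl-AM samples, 159.2, 123.2 and 145.6 in the Tumor-AM samples, and 34.2, 27.5 and 28.9 in the TAM samples. The AM groups overlapped, and every TAM sample lay below every AM sample. Its change in Tumor-AM was 0.096 ± 0.12 (95% interval -0.16 to 0.35, adjusted p = 0.677, limma). In TAMs it was lower by a log2 change of -2.20 ± 0.12 against Tumor-AM (adjusted p = 9.27e-08, limma) and -2.11 ± 0.12 against Ctrl-AM (adjusted p = 9.00e-08, limma). Of the 75-base stretches of its transcript, 6.042% also occur in Itgad, its neighbor gene.

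Itgal, the CD11a chain (chromosome 7, 127296260 to 127335138), binds Icam1 as part of LFA-1. Its level was 58.6, 71.5 and 67.7 FPKM in the Ctrl-AM samples, 82.0, 66.5 and 73.5 in the Tumor-AM samples, and 37.9, 29.1 and 33.4 in the TAM samples. The AM groups overlapped and TAMs lay below both. Its change in Tumor-AM was 0.16 ± 0.12 (95% interval -0.095 to 0.42, adjusted p = 0.436, limma), and it was lower in TAMs by -1.12 ± 0.12 against Tumor-AM (adjusted p = 1.64e-05, limma).

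**Figure D2:**
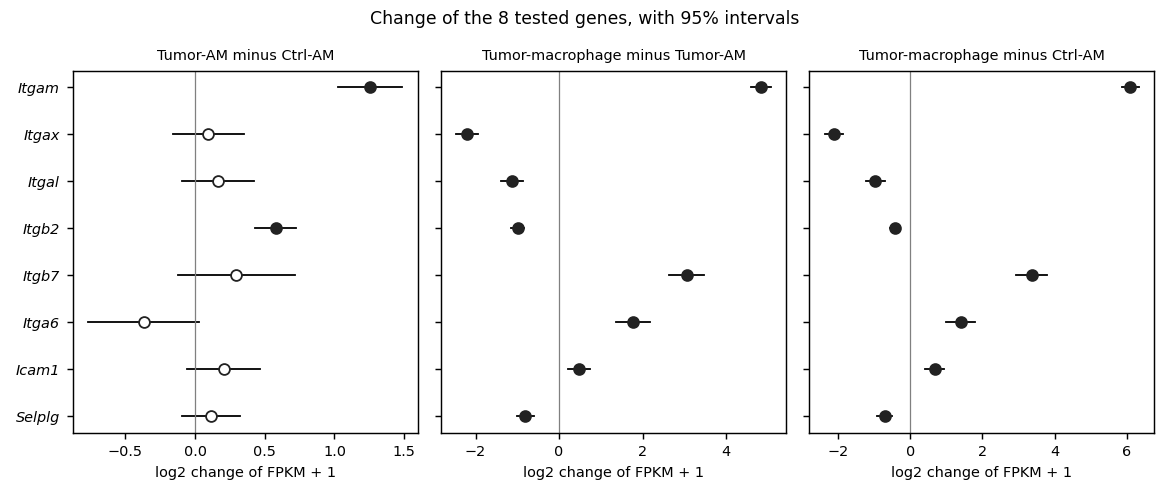
log2 change of FPKM + 1 for the 8 tested genes in the 3 comparisons, with 95% intervals (lines) and filled points where adjusted p is under 0.05. Only Itgam (1.26) and Itgb2 (0.58) are filled in the comparison of the AM groups, and all 8 are filled in both comparisons of TAMs, 4 on each side of 0.

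Itgal, Itgam and Itgax, 3 of the alpha chains that pair with CD18, were summed to give their relative abundance, which does not depend on the scaling between samples. The sum was 200.2 ± 19.0 FPKM (SD, n = 3) in AMs of control mice, 220.9 ± 25.5 in Tumor-AM and 210.7 ± 6.24 in TAMs. Itgax took 66.5% ± 1.08 of it in Ctrl-AM, 64.5% ± 0.926 in Tumor-AM and just 14.3% ± 1.91 in TAMs. Itgam took 0.587% ± 0.0454, 1.93% ± 0.417 and 69.7% ± 4.09, and Itgal 32.9% ± 1.11, 33.5% ± 0.687 and 15.9% ± 2.23. AMs thus held mostly the CD11c transcript and TAMs mostly the CD11b transcript. Itgax and Itgam shares did not overlap between any 2 groups, and the two-sided exact permutation p was 0.1 for each (adjusted over the 3 comparisons of a share, 0.1), the smallest p that 3 against 3 samples allow. For Itgal the p was 0.4 between the AM groups and 0.1 against TAMs (adjusted 0.4 and 0.15). Itgad, the other chain of CD18, was not in this sum. In an alternative chosen after seeing the data, with Itgad as one of 4 chains, Itgad took 3.51% ± 0.463 in Ctrl-AM, then 0.716% ± 0.354 in Tumor-AM and 0.0779% ± 0.0432 in TAMs. The Itgax share was then 64.2% ± 0.886 in Ctrl-AM and 64.1% ± 0.746 in Tumor-AM, with overlapping samples (exact permutation p = 1.0), so the lower Itgax share of Tumor-AM depended on leaving Itgad out. Against TAMs, at 14.3% ± 1.91, it still did not overlap.

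**Figure D3:**
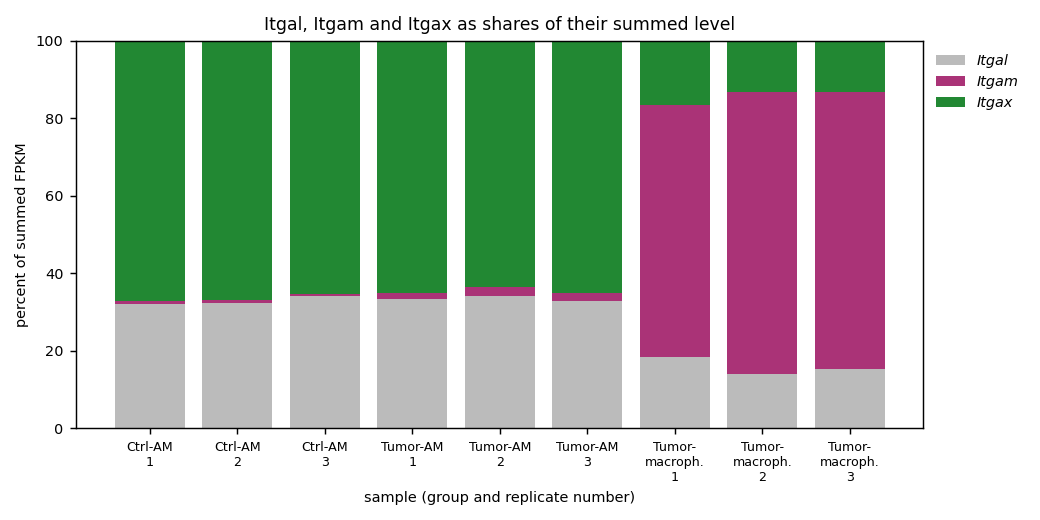
Itgal, Itgam and Itgax as percent of their summed FPKM (stacked bars from 0 to 100%) in each of the 9 samples. Itgax fills most of the bar in all 6 AM samples and Itgam most of it in all 3 TAM samples.

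Itgb7, a beta chain that pairs with alpha-4 (Itga4) to bind gut endothelium and with alpha-E (Itgae) to bind E-cadherin on epithelium, was low in AMs. Its level was 2.84, 4.11 and 2.69 FPKM in the Ctrl-AM samples, 4.49, 2.91 and 5.24 in the Tumor-AM samples, and 48.5, 38.4 and 38.9 in the TAM samples. The AM groups overlapped and every TAM sample lay far above them. It was higher in TAMs by 3.06 ± 0.19 than in Tumor-AM (adjusted p = 2.89e-07, limma) and by 3.36 ± 0.19 than in Ctrl-AM (adjusted p = 1.07e-07, limma), ratios of means of 9.95 and 13.0, whereas its change in Tumor-AM was 0.30 ± 0.19 (adjusted p = 0.380, limma). Itgb7 is also known from B cells, T cells and mast cells. Cd79a, part of the B-cell receptor, was 10.9 to 22.1 FPKM in TAMs and 1.57 to 3.59 in Tumor-AM, and Cpa3, a mast cell protease, 1.80 to 6.96 and 0 to 0.0694, and their part in the Itgb7 result was not tested.

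Neither alpha partner of Itgb7 came near its level in TAMs. Itga4 was 2.33 ± 0.306 FPKM in AMs of control mice, 2.90 ± 0.831 in Tumor-AM and 5.23 ± 0.503 in TAMs (SD, n = 3), higher in TAMs than in Tumor-AM by 0.69 ± 0.16 (adjusted p = 0.00420, limma). Itgae, the CD103 chain of resident T cells and some dendritic cells (chromosome 11, 73090583 to 73147446), was 0.247, 0.552 and 0.236 FPKM in the Ctrl-AM samples, 0.381, 0.221 and 0.0405 in the Tumor-AM samples, and 1.41, 0.482 and 0.552 in the TAM samples. It reached FPKM 1 in 1 of 9 samples and did not pass the filter. TAM values did not overlap with those of Tumor-AM but did with those of Ctrl-AM. Its values stand for an estimated 2.01 to 57.1 reads, so a difference is hard to detect at this depth. A fit of every gene without a filter gave 0.55 ± 0.20 between TAMs and Tumor-AM (adjusted p = 0.0695, limma).

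Itga6, the alpha-6 chain (CD49f, chromosome 2, 71745616 to 71858416) of laminin receptors, was low in AMs and higher in TAMs. Its level was 3.11, 2.06 and 2.26 FPKM in the Ctrl-AM samples, 2.01, 1.36 and 1.70 in the Tumor-AM samples, and 9.66, 6.17 and 8.90 in the TAM samples. Each Tumor-AM sample lay below each Ctrl-AM sample, but the change of -0.37 ± 0.18 did not pass (adjusted p = 0.241, limma; 95% interval -0.77 to 0.031). It was higher in TAMs by 1.77 ± 0.18 than in Tumor-AM (adjusted p = 1.38e-05, limma). Of its beta partners, Itgb1 was 107.3 ± 4.84 FPKM in Tumor-AM and 138.6 ± 2.50 in TAMs (a change of 0.37 ± 0.068, adjusted p = 0.00105, limma), and Itgb4 was at or below 0.0891 FPKM on average in every group.

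Icam1 (CD54, chromosome 9, 21015985 to 21028817) is the ligand of LFA-1 and Mac-1 and is known to be induced by inflammatory signals. Its level was 113.5, 99.5 and 94.4 FPKM in the Ctrl-AM samples, 122.8, 134.1 and 99.4 in the Tumor-AM samples, and 170.3, 177.2 and 148.3 in the TAM samples. The AM groups overlapped, and TAMs lay above both. The change in Tumor-AM was 0.20 ± 0.12 (95% interval -0.058 to 0.47, adjusted p = 0.329, limma), and TAMs were higher by 0.48 ± 0.12 than Tumor-AM (adjusted p = 0.00654, limma) and by 0.68 ± 0.12 than Ctrl-AM (adjusted p = 0.000604, limma), the smallest rises among the 4 genes higher in TAMs. Exons of Gm47079 on the other strand cover 20.16% of its transcript, and use of strand in the counting was not given in the sources used here.

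Selplg (PSGL-1, chromosome 5, 113818536 to 113832644) is the ligand that lets leukocytes roll on P-selectin. Its level was 214.0, 221.0 and 215.5 FPKM in the Ctrl-AM samples, 250.8, 205.2 and 251.7 in the Tumor-AM samples, and 142.9, 121.0 and 136.7 in the TAM samples. The AM groups overlapped and TAMs lay below both. The change in Tumor-AM was 0.11 ± 0.093 (95% interval -0.092 to 0.32, adjusted p = 0.5004, limma), and TAMs were lower by -0.81 ± 0.093 than Tumor-AM (adjusted p = 3.47e-05, limma).

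The order of levels changed between AMs and TAMs. In Ctrl-AM it ran Itgb2, Selplg, Itgax, Icam1, Itgal, Itgb7, Itga6, Itgam and Itgae, with overlap between neighbors only for Itgb7 and Itga6. In Tumor-AM Itgam stood above Itga6, and the overlapping neighbors were Itgax with Icam1 and Itgb7 with Itgam. In TAMs the order was Itgb2, Icam1, Itgam, Selplg, Itgb7, Itgal, Itgax, Itga6 and Itgae, with overlap of Icam1 with Itgam, Itgam with Selplg, and Itgal with Itgax. Itgam thus moved from rank 8 in Ctrl-AM to rank 3 in TAMs.

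Other genes of leukocyte adhesion were described by 5 lists of 66 genes, 47 of which passed the filter. In Tumor-AM against Ctrl-AM 4 of the 47 were called, 3 higher and 1 lower, beside the 10.3% of all genes. Itgad, the CD11d chain that also pairs with CD18, was lower, at 7.33 ± 1.65 FPKM (SD, n = 3) in AMs of control mice, 1.65 ± 0.976 in Tumor-AM and 0.163 ± 0.0880 in TAMs, a log2 change of -1.70 ± 0.25 in Tumor-AM (adjusted p = 0.00258, limma). All Ctrl-AM samples reached FPKM 1 for Itgad, but Tumor-AM 2 (0.722) and every TAM sample did not. It thus passed the filter only through Ctrl-AM, where it was high. It remains in the 4 of 47, but its call is no evidence of a difference. Cyth1, whose product binds the CD18 tail, had a level of 48.0 ± 1.92 FPKM in Ctrl-AM that reached 69.7 ± 2.44 in Tumor-AM, a change of 0.53 ± 0.089 (adjusted p = 0.00487, limma). Fut7, which makes selectin ligands, rose by 0.95 ± 0.23 (adjusted p = 0.0260, limma), and Fyb, an adaptor of integrin activation, by 0.45 ± 0.12 (adjusted p = 0.0482, limma). Fut7 kept its call in 12 of 18 alternative settings and Fyb in 5, while Cyth1 kept its call in all 18, as did Itgad under the limit given above.

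Between TAMs and Tumor-AM 39 of the 47 were called, 25 higher and 14 lower, with a median change of 0.34 over the 47 against 0.0012 over all genes. Over all genes 48.6% were called, 24.2% higher and 24.4% lower. Of the other integrin alpha chains, 6 of 13 passed the filter and were called. Of these, Itga9 reached FPKM 1 in TAMs alone and Itga1 and Itgad in AMs alone. Those 3 passed the filter only through the cells where they were high. They remain in the 39 of 47, its split and the median, but their calls are no evidence of a difference. Itga9, a chain that binds matrix proteins such as tenascin, was 0.0264 ± 0.0269 FPKM in Tumor-AM and 13.0 ± 0.969 in TAMs (SD, n = 3), and Itgav, the alpha-v chain, 4.42 ± 0.244 and 13.2 ± 0.810. Itga5 was called higher as well, and Itga1, a collagen receptor chain, and Itgad lower. Both tested beta chains were higher, Itgb5 at 110.5 ± 16.9 and 248.8 ± 46.6 FPKM, and Itgb1.

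Genes that link integrins to the cytoskeleton or switch them on were split. Of 21, 10 were higher in TAMs, 5 lower and 6 did not pass, beside 24.2% higher and 24.4% lower over all genes, with a median change of 0.22 against 0.0012. Fyb rose most, from 1.23 ± 0.144 FPKM in Tumor-AM to 50.2 ± 6.51 in TAMs (SD, n = 3). Vcl (vinculin) and Tln1 (talin) were higher by 0.83 ± 0.14 and 0.73 ± 0.10 on the log2 scale. Rassf5 (RAPL, which binds Rap1 and LFA-1) was lower by -1.60 ± 0.10 (adjusted p = 3.37e-07, limma), and Apbb1ip (RIAM, which brings talin to integrins) by -1.30 ± 0.12 (adjusted p = 5.27e-06, limma).

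Among adhesion ligands and selectins, 10 of 17 passed the filter and were called, 6 higher and 4 lower in TAMs, where 48.6% of all genes were called. Vcam1, the ligand of alpha-4 integrins, was 1.01 ± 0.254 FPKM in Tumor-AM and 197.5 ± 13.5 in TAMs, the largest change of any listed gene (6.63 ± 0.15, adjusted p = 2.07e-10, limma). Cdh1 (E-cadherin, the ligand of the Itgae and Itgb7 pair) ran the other way, at 16.8 ± 8.07 and 1.26 ± 0.358 FPKM, as did Cd44, Cd47 and F11r, a junction ligand of LFA-1. The summed level of 6 epithelial cell markers was 49.2 to 199.4 FPKM in Ctrl-AM samples, 30.8 to 80.8 in Tumor-AM samples and 19.5 to 70.9 in TAMs. The part of epithelial RNA in the Cdh1 and F11r results was not tested. Of 8 tested genes of selectin ligand glycosylation, 3 were higher (St3gal6, Tpst1 and Tpst2), 3 lower (Fut7, St3gal4 and B4galt1) and 2 did not pass. Against Ctrl-AM 39 of the 47 were called too, 26 higher and 13 lower, with a median change of 0.48, beside 54.8% of all genes called (27.7% higher, 27.1% lower) and a median of -0.0082. These numbers again include Itga9, Itga1 and Itgad, which passed the filter only through the cells where they were high.

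**Figure D4:**
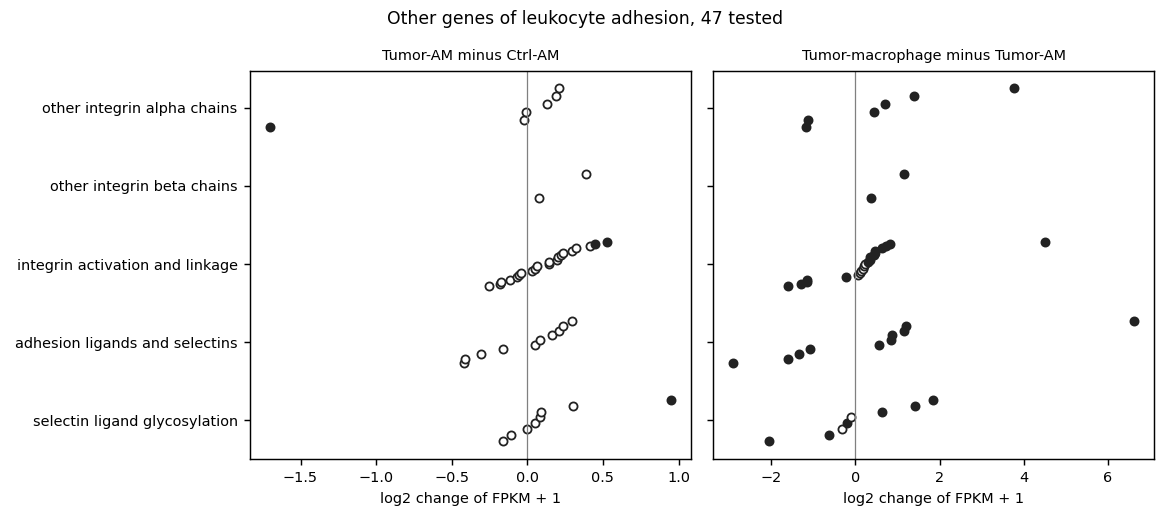
log2 change of FPKM + 1 of the 47 tested genes in the 5 adhesion lists, 1 point per gene, filled where adjusted p is under 0.05. In Tumor-AM against Ctrl-AM 4 points are filled, and in TAMs against Tumor-AM 39, with Vcam1 farthest to the right at 6.63.

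For each gene the tested genes with the most alike pattern were found, as the root mean square difference of log2(FPKM + 1) around each gene's mean over the 9 samples. For Itgam, Fgl2 was the nearest (0.20), at 1.45, 3.52 and 150.1 FPKM on average in the order Ctrl-AM, Tumor-AM, TAMs. For Itgb2, highest in Tumor-AM, they were Slc48a1 (0.074), at 97.3, 138.5 and 72.7 FPKM, and Cdkn1a (0.097), at 227.1, 336.8 and 172.2. The others were Plet1os and Pros1 for Itgax, Man2a2 and Nfam1 for Itgal, Prkcb and Tgfb3 for Itgb7, Ntpcr and A530032D15Rik for Itga6, Nmi for Icam1, and Fuca1 and Atrnl1 for Selplg, at 0.058 to 0.18. The measure rests on 9 samples in 3 groups.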

How the data were processed

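Sorted lung macrophages of 3 groups, 3 samples each, were sequenced (SMART-Seq HT, 75-base single-end reads). The deposited FPKM were computed by the authors, who mapped to mm10 with TopHat2 2.1.1 and Bowtie2 and quantified with Cufflinks per their methods, Cuffdiff 2.2.1 per the submitters' processing notes. The annotation and treatment of shared reads are not given in the sources used here. Depth, estimated from whole-read steps of low values in single-transcript genes, was 11073000 to 13943000 reads (66.8% to 71.6% of such values lay within 0.05 of a whole read, 0.613% to 2.88% within 0.05 of a mid-point). Reads are not molecules, so this covers counting error only. Replicates were separate samples by label, and the paper gives 3 mice for each population. No batch was given, and no files were identical. The p-values measure only the spread between these samples, technical spread included.

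log2(FPKM + 1) was fitted with limma 3.58.1 (R 4.3.3, trend) over all 9 samples, for genes with FPKM of at least 1 in 3 samples, two-sided, with Benjamini-Hochberg adjustment. The self-check ran on simulated data. The genes described, the lists and the tests were chosen with earlier results of these data known. Named were the 9 genes, at most 4 listed genes per list and direction by size of change among those called, and the 2 nearest genes by pattern, of which some are not reported here. A gene outside this rule is named as a marker or partner. Alternatives changed the pseudocount, filter, scaling, prior, samples fitted and replicate block, and left out each sample. Annotation was GENCODE vM21, and promoter sequences were from RefSeq.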

Additional observations from a re-analysis of the deposited data

How the results depend on the processing

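The calls of the 8 tested genes were the same in all 18 alternatives in all 3 comparisons. The log2 change of Itgam in Tumor-AM ran from 1.21 to 1.75 and that of Itgb2 from 0.44 to 0.62. Rescaling to TPM moved the median of all genes by -0.12, -0.086 and -0.21 in Tumor-AM against Ctrl-AM, TAMs against Tumor-AM and TAMs against Ctrl-AM, and the share of calls that were higher from 69.1%, 49.9% and 50.5% to 36.6%, 40.5% and 32.6%. Quantile normalization gave 57.6% higher in the first. Under TPM the uncalled changes of Itgax and Selplg in Tumor-AM turned to -0.042 and -0.023. Of listed adhesion genes, 4 were called in Tumor-AM against Ctrl-AM, 3 higher and 1 lower, the lower being Itgad, which passed the filter only through Ctrl-AM. The number was 6 under TPM (3 higher, 3 lower) and 6 with a filter of FPKM 5 (5 higher, 1 lower), 2 without a filter on low values (66 genes entered), and 2 to 5 with 1 sample left out, being 2 without Ctrl-AM 1, Ctrl-AM 2, Tumor-AM 1 or Tumor-AM 3. The number of all genes called there ran from 538 to 1254 with 1 sample left out, against 1100, and was 772 with no filter. With the replicate number as a block, 2, 8 and 8 of the 8 genes and 3, 37 and 40 listed genes were called, and 938 genes in all in the first comparison. Whether Tumor-AM and TAM samples of the same number came from the same mouse is not stated in the sources used here. The 9 same-number correlations ran from -0.0615 to 0.159, with 2 over 0.1. Between TAMs and Tumor-AM they were 0.026, 0.0964 and 0.109, against -0.101 to 0.00617 for unlike numbers. Correlations this small cannot decide whether the numbers pair the samples. With Itgad in the sum, chosen after seeing the data, the Itgax share differed between the AM groups by -0.088 percentage points, against -1.96. For Itgae, 2.01 to 57.1 estimated reads per sample set the limit.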
